A study of Mus musculus with 6 samples.

Results

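The 8 genes examined encode transcription factors of the hepatocyte lineage, namely Hnf4a, Foxa1, Foxa2, Foxa3, Cebpa, Cebpb, Nr5a2 and Nr1h4. They were chosen by gene symbol, and all 8 had a row among the 25330 genes in the deposited tables. The dataset came from AML12, a mouse hepatocyte cell line derived from animals that carried a transgene for human transforming growth factor alpha, and all cells were labelled wild type. The control group was 3 libraries from cells kept at 21% oxygen, and the hypoxia-reoxygenation (H/R) group was 3 libraries from cells held at 1% oxygen for 6 h and then reoxygenated for 2 h. Routine culture medium held serum, an insulin-transferrin-selenium supplement and dexamethasone, whereas hypoxia was applied in medium free of serum and glucose, so that oxygen and medium cannot be told apart. The labels do not state that the libraries came from separate cultures, and the p-values therefore measure only the spread between these libraries, which may be technical.

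Hepatocyte identity is maintained by a small network of factors that bind each other's genes. HNF4A is an orphan nuclear receptor that drives many liver genes, the FOXA proteins are forkhead factors that can open chromatin early in liver development, and the C/EBP proteins are basic leucine zipper factors of metabolic and acute phase genes. Nr1h4 encodes FXR, the nuclear receptor for bile acids, and Nr5a2 encodes LRH-1, a nuclear receptor that acts with it in bile acid and cholesterol metabolism.

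The bases upstream of a start site are shown for 1 window each of Hnf4a, Nr1h4 and Cebpb. The letters CACCC are a motif bound by KLF factors such as the one the study follows. Hnf4a and Nr1h4 were chosen because these letters stood in the Hnf4a windows and were missing in the Nr1h4 window. Cebpb was chosen as the only member with the core of the cAMP response element. RefSeq promoters (GRCm38.p6) were found for 8 of 8 genes, in 12 windows, and the 250 bases before each start were searched on both strands. The last 200 bases of each window are written in the direction of the gene, and capitals mark CACCC (or GGGTG) and TGACG (or CGTCA).
Hnf4a, chr2:163546955-163547154, plus strand: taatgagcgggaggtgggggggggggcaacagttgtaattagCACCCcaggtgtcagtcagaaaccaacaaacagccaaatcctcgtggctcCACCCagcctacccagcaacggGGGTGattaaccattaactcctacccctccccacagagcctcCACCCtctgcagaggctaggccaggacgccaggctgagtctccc
Nr1h4, chr10:89506659-89506858, minus strand: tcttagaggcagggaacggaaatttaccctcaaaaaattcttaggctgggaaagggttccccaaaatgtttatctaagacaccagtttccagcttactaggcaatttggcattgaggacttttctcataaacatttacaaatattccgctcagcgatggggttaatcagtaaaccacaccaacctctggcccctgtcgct
Cebpb, chr2:167688715-167688914, plus strand: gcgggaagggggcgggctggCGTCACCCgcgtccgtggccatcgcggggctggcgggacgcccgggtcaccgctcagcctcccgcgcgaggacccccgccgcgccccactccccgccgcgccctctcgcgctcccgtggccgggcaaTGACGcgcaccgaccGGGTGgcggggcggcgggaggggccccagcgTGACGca
In these stretches 0 bases lay in an annotated exon, and the Hnf4a and Nr1h4 windows lie before internal start sites of their genes. CACCC started at positions -158, -108, -86 and -44 from the start in the Hnf4a stretch, at -177 and -38 in Cebpb and nowhere in the Nr1h4 window. Counted by window it was found in 9 of the 12, and in 52.0% of all 32851 promoter windows of the table. The 9 windows belong to 7 of the 8 genes. Foxa2, called higher after H/R as Nr1h4 was, held CACCC at -24 and -18 in window 2, at -69 and -46 in window 3 and nowhere in window 1. The Hnf4a window not shown held it at -83, -73 and -39. No other Nr1h4 window was in the table, so bases before the outer start of Nr1h4 were not searched. TGACG stood at -180, -53 and -7 of Cebpb, which is 1 of the 12 windows, and in 17.8% of all windows. The hypoxia response element core, ACGTG, was found in 0 of the 12 windows and in 16.6% of all windows. The CACCC letters overlap TGACG at -177 of Cebpb. These matches describe the letters alone.

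In control cells the 8 factors fell into an abundant and a scarce set of 4 genes each. On the length-corrected RPKM scale (reads scaled to gene length and library total), Cebpb stood at 39.5 ± 2.75 (SD, n = 3), Hnf4a at 29.6 ± 1.52, Nr1h4 at 26.4 ± 0.685 and Foxa2 at 25.1 ± 1.03. These levels placed the 4 genes between percentiles 90.6 and 93.8 of all rows. Foxa3 was at 0.560 ± 0.167 RPKM, Cebpa at 0.354 ± 0.0579, Foxa1 at 0.0736 ± 0.0532 and Nr5a2 at 0.0131 ± 0.0119. The step between both sets was the gap from Foxa2 to Foxa3, a ratio of 44.8 in RPKM. The ranges of neighbouring genes in this order were separate except for Nr1h4 and Foxa2. The exact permutation p was 0.2 for that pair and 0.1, the smallest that 3 against 3 allows, for the others. This test ignores that both genes of a pair were measured in the same libraries. Nr1h4 was above Foxa2 in all 3 libraries. The order of Foxa1 and Nr5a2 rests on 2, 4 and 9 counts against 3, 0 and 2.

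**Figure D1:**
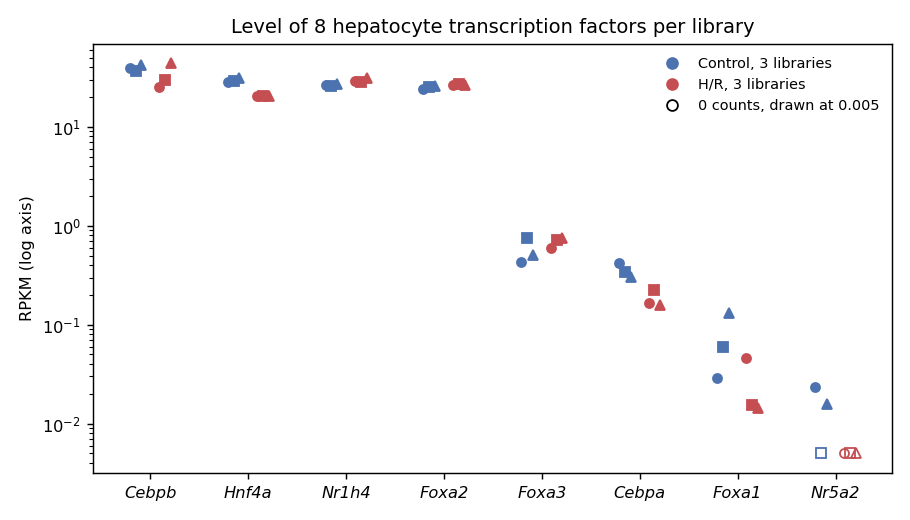
RPKM on a log axis for each of the 8 genes in each library, blue for control and red for H/R, with circle, square and triangle for replicates 1, 2 and 3 and open symbols for 0 counts. The 4 abundant genes lie above 20 RPKM in every library, and the other 4 below 1.

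The label hepatocyte was checked against marker genes. The simple keratins Krt8 and Krt18 stood at 1394 and 1123 RPKM in control cells and Ttr, the thyroid hormone carrier transthyretin, at 12.1 RPKM, but Asgr1 and Tat, markers of mature hepatocytes, had 3 counts or fewer in every library. The biliary keratins Krt19 and Krt7 stood at 495 and 64.6 RPKM, and Spp1 at 129, with Cftr at 3 counts or fewer. Vim, a mesenchymal filament gene, stood at 599 RPKM, Des at 0.0954 and Col1a1 at 0.0763, with Acta2, Lrat and Pdgfrb at 3 counts or fewer. Endothelial genes summed to at most 0.0908 RPKM in any library, with Pecam1, Kdr, Cdh5 and Lyve1 at 3 counts or fewer. Of the immune markers Cd68 rose from 0.745 to 4.73 RPKM, whereas Ptprc, Adgre1, Clec4f and Itgam had 3 counts or fewer. The summed level of every marker list except the endothelial one moved with the groups. The immune markers summed to 0.6175 to 0.8476 RPKM in control and 4.401 to 5.013 in H/R, mostly from Cd68. The 13 hepatocyte markers summed to 2439 to 2646 RPKM in control and 3685 to 3714 in H/R, the 5 biliary markers to 655.8 to 745.9 and 1090 to 1144, and the 6 mesenchymal markers to 582.5 to 625.6 and 714.6 to 739.9. Krt8 and Krt18 made up nearly all of the hepatocyte sum, and each rose by 0.66 on the log2 scale. The rise of that sum is therefore a rise of these keratins and does not describe the other hepatocyte markers. Vim likewise made up nearly all of the mesenchymal sum, with 582.3 to 625.4 RPKM in control and 714.4 to 739.7 in H/R. Of the 7 tested hepatocyte markers, 2 (Krt8 and Krt18) were called higher and 5 lower, with a median log2 fold change of -1.04. Ttr fell by 3.07, Alb (albumin) by 2.85 and Afp (alpha-fetoprotein) by 2.03. Alb had 542 counts in control replicate 1, 132 and 209 in the other control libraries, and 43, 31 and 37 in H/R. The size of the Alb fall thus depends on control replicate 1 and is uncertain (SE 0.808, adjusted p = 0.0372, edgeR quasi-likelihood test). Every H/R library was still below every control library for Alb. A value for Alb without control replicate 1 is not given here. Within the biliary list Sox9 rose by 2.504, Krt19 by 1.00 and Krt7 by 0.79, and Spp1 fell by 0.57. The part of these markers in the results on the 8 factors was not tested.

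Total counts were 21026650 to 21854790 in control and 20438746 to 21742441 in H/R libraries. Klf6, the factor the study follows, rose by 1.39 on the log2 scale (SE 0.0463, adjusted p = 1.68e-23, edgeR quasi-likelihood test with Benjamini-Hochberg adjustment). Control replicate 1 stood apart, with transcripts of mature liver that were almost missing elsewhere. Fabp1, a fatty acid carrier of liver, had 46 counts there and at most 2 in any other library, and Fga, a fibrinogen chain gene, had 61 and 0. None of the 8 factors showed that pattern (at least 10 counts in control replicate 1 and at most 2 in every other library). A factor with more than 2 counts in any other library could not meet this rule. The rule therefore does not tell whether the transcripts in control replicate 1 added to the counts of the factors. Except for markers, values without this library are given where a call or direction changes or a value moves by over 1.5 times. In bulk libraries fewer cells of a type and less RNA per cell cannot be told apart.

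Of the 8 factors, 6 had enough counts for the test over all 14020 genes, and 4 of the 6 had an adjusted p under 0.05 after H/R (edgeR quasi-likelihood test, Benjamini-Hochberg adjustment). That is a share near the background, since 62.8% of all tested genes passed. Nr1h4 and Foxa2 were higher (background 31.0%), Hnf4a and Cebpa lower (background 31.8%), and Cebpb and Foxa3 did not pass. The same 4 genes had groups that did not overlap, as had 65.9% of tested genes. None reached a 2-fold change as well, against 8.52% of tested genes. Without control replicate 1 the number with an adjusted p under 0.05 was 3 of 6. The median log2 fold change of the 6 was 0.03, beside -0.01 for all tested genes.

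**Figure D2:**
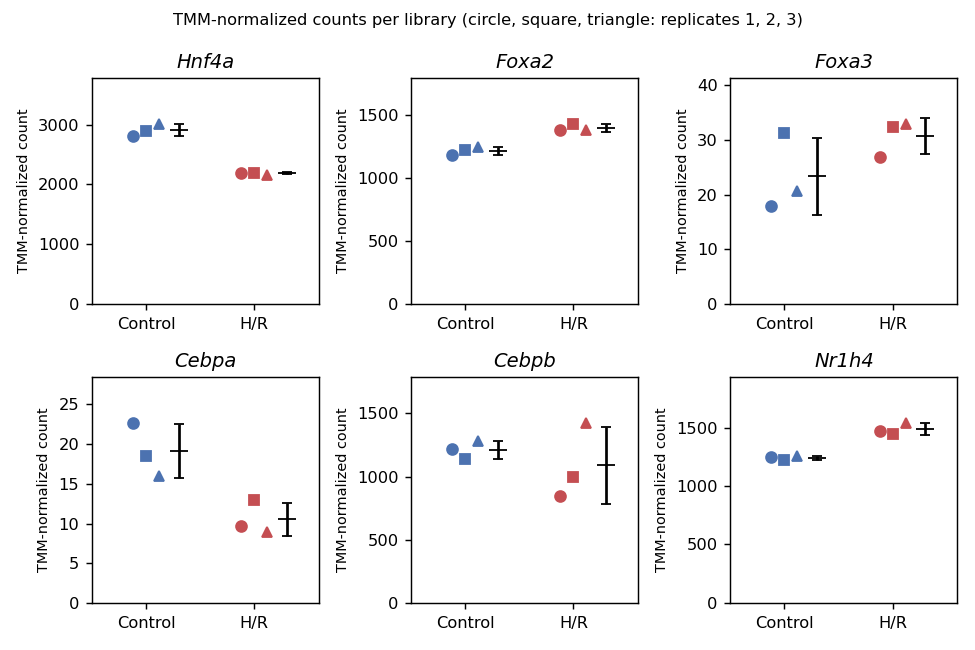
TMM-normalized counts of the 6 tested genes in each library (circle, square and triangle for replicates 1, 2 and 3), with the mean and SD of each group as a bar beside them. Control and H/R points are separate for Hnf4a, Cebpa, Foxa2 and Nr1h4, whereas Cebpb in H/R runs from 845.5 to 1428 and spans the control values.

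Hnf4a lies on chromosome 2 from 163506808 to 163572910 on the plus strand (GRCm38). It had 2973, 2973 and 3209 counts in control replicates 1 to 3, and 2043, 2035 and 2166 in the H/R libraries in the same numbering. Every H/R library was below every control library. After scaling by TMM, a method that corrects library size for composition, the level was 2912 ± 104 (SD, n = 3) in control and 2187 ± 19.3 in H/R. Hnf4a thus fell by 0.41 on the log2 scale (SE 0.0438, adjusted p = 4.15e-10), or to 0.751 of control. The 3 H/R libraries gave 20.6 RPKM each, and their coefficient of variation of 0.882% ranked 5711 of 5990 genes with a mean of at least 500 normalized counts in H/R, where rank 1 is the most variable. The tables count the gene as a whole, so transcripts from its promoters were not separated. The antisense gene Hnf4aos had at most 1 count in any library.

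The 3 genes most like Hnf4a across the 6 libraries were Fbxl19, Med22 and Nfix, with Pearson correlations of log2 CPM, a library-scaled count of 0.9995, 0.9991 and 0.9988. All fell after H/R, by 0.72, 0.74 and 0.85 on the log2 scale. Likeness of this degree was common, since 1611 of the 10178 genes compared reached 0.95. The 6 points form separate groups of 3 that share a treatment.

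Among the forkhead genes, Foxa2 made up nearly all FOXA message. Foxa2, on chromosome 2 from 148042877 to 148046969 (minus strand), had 1247, 1253 and 1320 counts in control and 1282, 1327 and 1378 in H/R. These raw counts overlap, but the normalized counts do not, with 1181 to 1243 in control and 1377 to 1431 in H/R. Foxa2 rose by 0.20 on the log2 scale (SE 0.0494, adjusted p = 0.000663), a fold of 1.15. The call depended on the scaling. With library totals alone the log2 fold change was 0.10 with an adjusted p of 0.104, and the median of all genes moved by -0.11.

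Foxa3, on chromosome 7 from 19013284 to 19023538 (minus strand), had 19, 32 and 22 counts in control and 25, 30 and 33 in H/R. The groups overlapped, and the log2 fold change of 0.40 did not pass (95% interval -0.14 to 0.95, adjusted p = 0.195), an interval that holds a fold from slightly under 1 to nearly 2. The value was 0.25 (adjusted p = 0.481) without control replicate 1 and 0.67 (adjusted p = 0.0594) without control replicate 2. Foxa1, on chromosome 12 from 57540631 to 57546121 (minus strand), had 2, 4 and 9 counts in control and 3, 1 and 1 in H/R. It was too low for the test and a change was not detectable at this depth (exact permutation p = 0.2 on normalized counts).

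As a share of summed FOXA RPKM, which does not depend on library scaling, Foxa2 supplied 97.6% ± 0.629 (SD, n = 3) in control and 97.4% ± 0.190 in H/R (difference -0.136 percentage points, exact permutation p = 0.8, two-sided). Without control replicate 1 the difference turned to 0.161. Foxa3 supplied 2.17% and 2.495% (difference 0.325 percentage points, p = 0.4, exact), a difference that was 0.109 without control replicate 1, 0.186 without control replicate 3 and 0.679 without control replicate 2. Foxa1 supplied 0.281% and 0.0923% (p = 0.2, exact). The smallest p this design allows is 0.1, so none of the 3 shares could pass 0.05.

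The C/EBP genes differed in level and in spread. Cebpa, on chromosome 7 from 35119293 to 35121928 (plus strand), encodes the factor typical of resting mature hepatocytes, and had 24, 19 and 17 counts in control and 9, 12 and 9 in H/R. The H/R libraries were all below the control libraries, and Cebpa fell by 0.85 on the log2 scale (SE 0.346, 95% interval -1.56 to -0.15, adjusted p = 0.0319). With so few counts the call was weak. It was lost without control replicate 1 (-0.71, adjusted p = 0.128), and also without control replicate 2 (adjusted p = 0.0526), H/R replicate 1 (0.0887) or H/R replicate 3 (0.113). Its exons share 51 bases with the antisense gene Gm45091, whose count never passed 4.

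Cebpb, on chromosome 2 from 167688915 to 167690418 (plus strand), encodes the factor that stress and cytokines induce. It had 1287, 1166 and 1358 counts in control, and 785, 922 and 1429 in H/R. H/R replicates 1 and 2 lay below all control libraries and replicate 3 lay above them, so that the normalized mean of 1211 ± 70.9 in control stood against 1089 ± 303 in H/R. The log2 fold change was -0.15 (SE 0.224, 95% interval -0.76 to 0.46, adjusted p = 0.608). Without H/R replicate 3 it was -0.39 with an adjusted p of 1.65e-05, and without H/R replicate 1 it was 0.00 with an adjusted p of 0.993. A single library therefore decided whether Cebpb was called.

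The coefficient of variation of Cebpb among the H/R libraries was 27.8%, the rank of 4 among 5990 genes with a mean of at least 500 normalized counts, whose median was 3.44%. In control it was 5.85%, rank 1532. Cebpb shares 312 of its 1504 exon bases with Tmem189, which lies on the opposite strand. Tmem189 had 1226, 1252 and 1507 counts in control and 874, 949 and 1333 in H/R, so it too was highest in replicate 3 of H/R. The sources used here do not state whether reads were counted by strand. These counts therefore do not tell which reads of the shared bases belong to which gene.

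**Figure D3:**
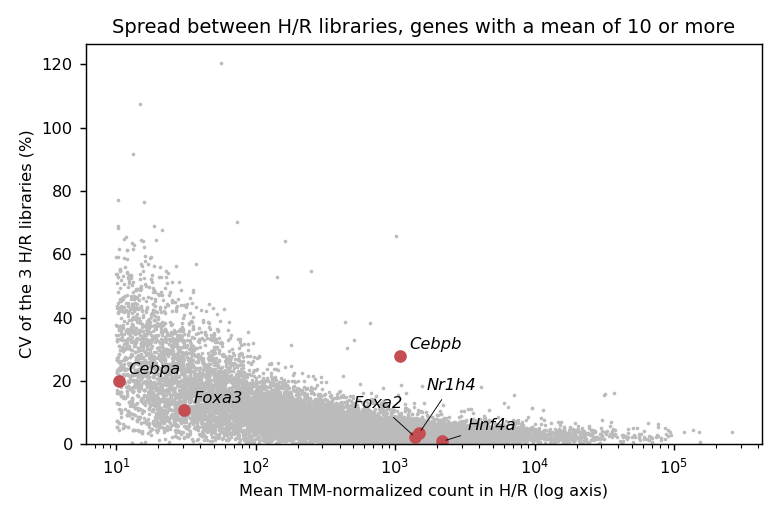
Coefficient of variation (%) of the 3 H/R libraries against the mean normalized count in H/R (log axis), with grey points for tested genes with a mean of at least 10 and red points for the 6 tested factors. Cebpb at 27.8% ranks 4 among the 5990 genes with a mean of at least 500, and Hnf4a at 0.882% lies near the bottom.

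The ratio of Cebpb to Cebpa was computed per length within each library. On the log2 scale it was 6.81 ± 0.29 (SD, n = 3) in control and 7.48 ± 0.56 in H/R, and the groups overlapped (difference 0.67, exact permutation p = 0.2, two-sided). The difference was 0.35 without H/R replicate 3 and 0.40 when 0.1 RPKM was added to each value.

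Of the nuclear receptors, Nr1h4 was abundant and Nr5a2 was close to absent. Nr1h4, on chromosome 10 from 89454234 to 89533585 (minus strand), had 1318, 1252 and 1334 counts in control and 1366, 1341 and 1545 in H/R. Every H/R library was above every control library, and the normalized level went from 1242 ± 18.2 (SD, n = 3) to 1487 ± 50.8. Nr1h4 rose by 0.26 on the log2 scale (SE 0.0490, adjusted p = 2.13e-05), a fold of 1.20. With library totals alone it was 0.16 (adjusted p = 0.00825), and with limma on log2(RPKM + 1) 0.15 (adjusted p = 0.0174). Nr5a2, on chromosome 1 from 136842571 to 136960448 (minus strand), had 3, 0 and 2 counts in control and 0 in each H/R library. Both groups lay at or under 3 counts, which is 0.0239 RPKM in control replicate 3, so no fold is given.

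Of 21 other liver transcription factors, 19 had a row and 18 were tested, and 5 passed as higher and 10 as lower, with a median log2 fold change of -0.22. The background shares are again 31.0% higher and 31.8% lower, here and for each list that follows, and the median of all tested genes is -0.01. Nfia, a nuclear factor I gene, fell by 1.30 on the log2 scale, Hhex, a homeobox gene of early liver, by 1.04, and Onecut1, which encodes HNF6, by 0.92, though 52.8% of the exon bases of Onecut1 are shared with another gene. Gata6, a zinc finger factor of endoderm, rose by 1.07, Nr3c1, the glucocorticoid receptor, by 1.04, and Zhx2 by 0.27, a call that was lost with limma on RPKM. The Hnf4a change of -0.41 thus lay within the range of these genes.

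**Figure D4:**
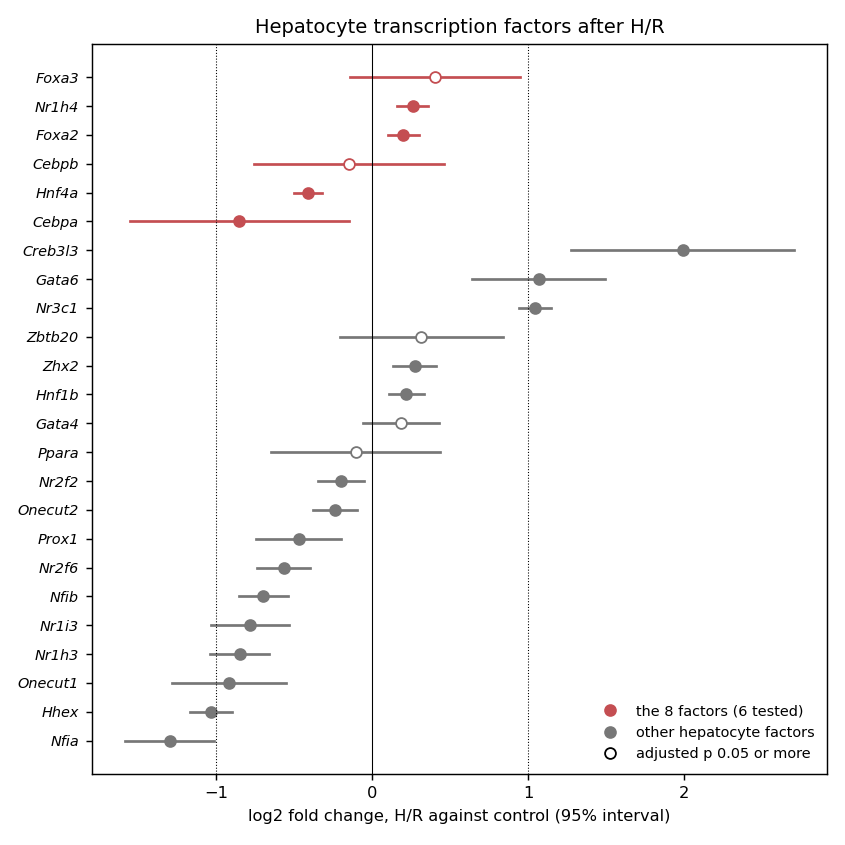
Log2 fold change with its 95% interval for the 6 tested factors (red) and 18 other liver transcription factors (grey), with open points where the adjusted p was 0.05 or more and dotted lines at a 2-fold change. The 6 points lie between -0.85 and 0.40, inside the range of the grey points from -1.30 to 1.99.

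Among 8 relatives and partners of the C/EBP proteins, 6 were tested, with 3 higher, 2 lower (62.8% of all tested genes called in either direction) and a median of 0.46. Ddit3, which encodes the stress factor CHOP that pairs with C/EBP proteins, rose by 1.61 on the log2 scale, from 644 to 767 counts in control to between 1864 and 1971 in H/R. Cebpg rose by 0.88 and Atf4, a stress factor that also pairs with C/EBP proteins, by 0.73. Trib1, a pseudokinase that directs C/EBP proteins to the ubiquitin ligase COP1, fell by 0.56, and Cop1 (Rfwd2 in the tables) fell by 0.34. Cebpd had 80, 73 and 72 counts in control and 85, 65 and 83 in H/R, and its log2 fold change of 0.19 did not pass (adjusted p = 0.313).

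Among 13 partners and coregulators of the nuclear receptors, 9 were tested, with 4 higher, 2 lower (background 31.0% and 31.8%) and a median of 0.09. Ppargc1a, a coactivator of HNF4A and FXR, rose by 1.53 on the log2 scale, with 34 to 37 counts in control and 92 to 96 in H/R. The coactivator genes Ncoa3 and Ncoa1 rose by 0.88 and 0.51, Ncoa2 fell by 0.14 and the corepressor gene Ncor1 by 0.11. Both of the latter calls were weak. Without control replicate 1 neither passed (adjusted p = 0.0584 for Ncoa2 and 0.0668 for Ncor1) and 4 genes, all higher, were called. Ncoa2 lost its call in 8 of 16 alternatives and Ncor1 in 6 of 15. Nr0b2, which encodes the FXR-induced repressor SHP, had 1 count in control replicate 1 and 0 in the other 5 libraries.

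Genes these factors are known to regulate were mostly near the detection limit. Of 16 bile acid and cholesterol genes linked to FXR or LRH-1, 14 had a row and 6 were tested, with 1 higher, 2 lower (background 31.0% and 31.8%) and a median of -0.12. Slc51b, a bile acid exporter subunit, rose by 1.85 on the log2 scale (17, 18 and 9 counts in control, 58, 39 and 48 in H/R), and 12.8% of its exon bases are shared with another gene. Abcc2, a canalicular organic anion pump, fell by 1.96, from between 542 and 601 counts to between 123 and 146, and Scarb1, the HDL receptor, fell by 1.22. In 5 of the 14, Nr0b2, Cyp7a1, Slc27a5, Abcg5 and Abcg8, chosen here for their values, no library had over 3 counts.

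Of 17 genes linked to HNF4A or to other liver factors, 4 were tested, with 0 higher, 3 lower (background 31.0% and 31.8%) and a median of -1.02. Ttr fell by 3.07 (344, 181 and 423 counts in control, 35, 16 and 51 in H/R), Apob by 1.04 and Apoa1 by 0.99 on the log2 scale. Apoa1 lost its call without control replicate 1 (-0.85, adjusted p = 0.054), control replicate 3 or H/R replicate 1, which left 2 genes called. The genes Apoa2, Cps1, Pck1, Fabp1 and Serpina1a, also named after their values were seen, had 18 to 61 counts in control replicate 1 and at most 2 in any other library.

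Of 15 acute phase genes linked to C/EBP factors, 8 were tested, with 5 higher, 2 lower (background 31.0% and 31.8%) and a median of 0.58. Lcn2, an iron-siderophore binder, rose by 1.34 on the log2 scale, Orm1, an acid glycoprotein gene, by 1.10 and Saa3, a serum amyloid gene, by 1.08. Hpx, the heme carrier hemopexin, fell by 0.86 and Cp, the copper carrier ceruloplasmin, by 0.14. The groups of Cp overlapped (adjusted p = 0.0464), and its call was lost in 6 of 15 alternatives, among them DESeq2 and the fit without control replicate 1 (adjusted p = 0.0664), which left 6 genes called. Near-identical copies exist for the Orm and Saa genes, so their counts are uncertain.

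**Figure D5:**
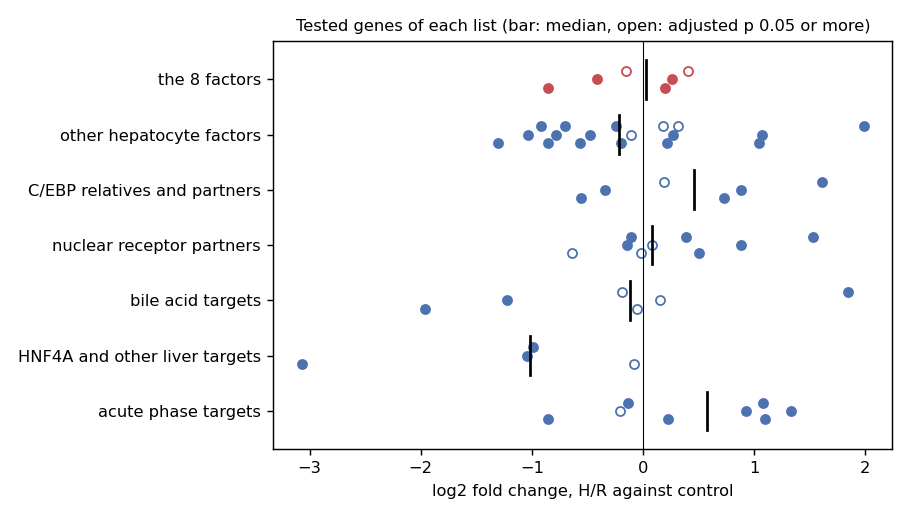
Log2 fold changes of the tested genes of each list (points, filled where the adjusted p was under 0.05) with the median of the list as a bar. The 6 tested of the 8 factors have a median of 0.03, the other liver factors -0.22, the genes linked to HNF4A or other liver factors -1.02 and the acute phase genes 0.58.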

How the data were processed

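The measurement was RNA-seq of AML12 cells, with 3 libraries a group. Per the labels RNA was extracted with Trizol and prepared with a stranded mRNA kit, and the submitters' processing notes list Trimmomatic 0.36, featureCounts, Subread 1.5.1 and edgeR 3.12.1 with the build GRCm38 (mm10). The annotation release is not given in the sources used here. As deposited, the counts are whole reads per gene and carry no scaling. The deposited RPKM values follow from count, gene length and library total (largest relative error 1.13e-06). RPKM was used for levels and counts for tests. Exons of 7571 of the 25330 genes overlap another gene's, and the counts of these are uncertain.

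Counts were analysed with R 4.3.3 and edgeR 4.0.16 (filterByExpr, TMM, robust quasi-likelihood fit), with Benjamini-Hochberg adjustment over 14020 genes, on groups taken from the labels. The test was also run on simulated counts with few changed genes and the same dispersion for every gene. That setting is unlike these data, so no conclusion is drawn from it here. A group whose libraries all had at most 3 counts of a gene was taken to be at the floor, which covers counting error only. Exact permutation tests were two-sided. Alternatives were DESeq2 1.42.0, other scalings and filters, non-robust dispersions, a replicate block, limma 3.58.1 on log2(RPKM + 1) and log2(RPKM + 0.1), leaving out each library and, added after seeing the data, leaving out genes with overlapping exons. The 8 factors and all lists were chosen with earlier results of these data known. From each list the text names up to 3 genes higher and 3 lower, by size of change, where the mean count was 30 or more, with Nr0b2 and Cebpd always and other exceptions marked. The result of 1 gene of the lists is not reported here. From the marker lists it names those highest in control and those at 3 counts or fewer. Hepatocyte markers Serpina1a, Cps1, Cyp2e1 and Cyp3a11 were near 0 outside control replicate 1. Listed genes without a row were not analysed here.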

Additional observations from a re-analysis of the deposited data

How the results depend on the processing

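Hnf4a and Nr1h4 kept direction and call in all 16 alternatives (edgeR, DESeq2 or limma, log2 fold change -0.52 to -0.39 and 0.15 to 0.28), and Foxa3 stayed uncalled in all 16 (0.12 to 0.67). Of 39 called genes on the other lists, 7 lost their call in some alternative. Foxa2 lost its call with library totals (0.0952, adjusted p = 0.104), log2(RPKM + 1) (0.0923, adjusted p = 0.0849) and log2(RPKM + 0.1) (0.0956, adjusted p = 0.086). Only the scaling differs in the first of these. The RPKM values of the other 2 carry the same scaling by library totals, and the part of their other differences was not tested. Cebpa lost its call with DESeq2 (-0.85, adjusted p = 0.110) and with no filter on low counts (-0.85, adjusted p = 0.0644). Over the fits that left out 1 library it ran from -1.02 to -0.71, with adjusted p from 0.032 to 0.128, and it could not be fitted with at least 10 counts in every library or without genes with overlapping exons. Over the same fits Cebpb ran from -0.39 to 0.00 (0.00226), reversed without H/R replicate 1 and called without H/R replicate 3. The Foxa2 share of FOXA RPKM ran from -0.465 to 0.161 percentage points, reversed without control replicate 1. The number of factors past both thresholds ran from 0 to 1, Cebpa without H/R replicate 2. With log2(RPKM + 1), 406 of all genes passed both thresholds, against 1195. Leaving out genes with overlapping exons, which tests fewer genes, gave 5366 genes called, 772 past both thresholds, 7 other liver factors, 3 C/EBP relatives and 3 nuclear receptor partners. With no filter, 6 genes linked to HNF4A or other liver factors were called. Foxa1 and Nr5a2 had too few counts for any fitted value here.

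Replicate numbers did not pair the samples (correlations of deviations -0.03, 0.00 and -0.01). With the replicate block no call among the 6 tested factors changed, Hnf4a being at -0.41 and Cebpa at -0.85 (adjusted p = 0.0396).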
